A study of Mus musculus with 66 samples.

Results

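The genes described here are the collagens, chosen by name as every gene whose symbol has the form Col, a number, a and a number in the deposited table, apart from Col17a1, a component of hemidesmosomes. They numbered 43 of the 30452 genes in the table. By the structure of the protein they fall into 11 fibrillar chains, 6 type IV chains of the basement membrane network, 2 multiplexins, 9 fibril-associated collagens (FACIT), 6 type VI chains of beaded filaments, the single anchoring-fibril chain Col7a1, 3 short-chain network collagens, 3 transmembrane collagens and 2 others. The rule itself used no measured value, but it was set with earlier results of these data known.

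The 19 mice were C57Bl/6, 6 weeks old when bought, and wild type in every group per the series' design. Dextran sulfate sodium (DSS), a polymer that injures the colonic lining, was given at 3% for 6 days from experimental day 0. Uninjured mice (n = 4) were killed at day 0 and injured mice at day 3, 6, 9, 14 or 20 (n = 3 each), so the day 3 mice were killed during the exposure. Each mouse gave a mid-colonic, a rectal and an anal section, and the 9 mice of days 9, 14 and 20 also gave squamous neo-epithelium, a stratified epithelium sampled as a section of its own. This made 66 bulk RNA libraries in 21 groups of section and day. Every section lacked its muscle layer, which was dissected off and not sequenced.

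Collagens are the triple-helical proteins of the extracellular matrix. Fibrillar collagens, led by types I and III, form the tensile fibrils of connective tissue and are made mainly by fibroblasts, while FACIT collagens sit on the fibril surface and type VI forms fine filaments around cells. Type IV chains assemble into the sheet-like network of basement membranes under epithelia and around vessels, to which the multiplexins Col15a1 and Col18a1 attach, and type VII forms the anchoring fibrils that hold stratified epithelium to the tissue below it.

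All libraries were on the TPM scale (transcript abundance adjusted for transcript length and scaled to a fixed total per library), with no read counts, so the depth behind a value is unknown. Between 11268 and 13789 genes reached 1 TPM in a library, and mitochondrial transcripts held 6.26% to 28.5% of the total. Marker lists were summed per library to check the labels. The 10 colonic epithelial markers summed to 18557 to 20285 TPM in day 0 mid-colon and 18045 to 19848 TPM in day 0 rectum, and the 10 squamous markers to 11704 to 27647 TPM in anal and 15063 to 32978 TPM in neo-epithelial libraries, against 5.20 to 25.2 TPM in mid-colon. Skeletal muscle markers (8 genes) summed to between 1819 and 18480 TPM in the 4 day 0 anal libraries, and to 2.69 to 12.4 TPM in neo-epithelium, so anal libraries held striated muscle RNA although muscle had been removed. Neutrophil markers (6 genes) summed to 0.797 to 5.92 TPM in day 0 rectum and 11103 to 13161 TPM in day 9 rectum. In bulk tissue, fewer cells of a type and less RNA per cell cannot be told apart, and this holds for every collagen value that follows.

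Col3a1, the chain of type III fibrils, was the most abundant collagen, with a mean of 350 TPM over the 66 libraries. The type I chains followed, Col1a2 at 62.4 TPM and Col1a1 at 33.3 TPM, and then the type V chains Col5a2 (15.1 TPM) and Col5a1 (7.88 TPM), which help to start fibrils. In the basement membrane class Col4a1 had a mean of 14.6 TPM and its partner Col4a2 8.51 TPM, while Col4a5 and Col4a6 stood at 1.93 and 0.580 TPM. Col18a1 averaged 9.20 TPM and Col15a1 7.31 TPM. The type VI chains Col6a1, Col6a3 and Col6a2 averaged 23.8, 19.6 and 18.5 TPM, and the leading FACIT chains Col16a1, Col12a1 and Col14a1 averaged 17.3, 14.1 and 6.01 TPM. Col7a1 averaged 2.51 TPM, the short-chain network collagen Col8a1 3.40 TPM with Col8a2 at 0.417 TPM, the transmembrane collagen Col23a1 1.62 TPM, and Col26a1 1.07 TPM. Of the 43 genes, 29 had at least 1 TPM in 3 or more libraries and 13 never reached 1 TPM, among them the cartilage chains Col2a1 and Col9a1.

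Levels of different collagens are comparable only with care, because for 14 of the 43 genes the transcript that held most of the TPM was shorter than 0.5 of the length of the longest one. For Col6a3 a retained-intron transcript of 646 bases held 79.3% of the gene's TPM, for Col16a1 a transcript of 833 bases held 67.5%, and for Col26a1 one of 578 bases held 96.8%. For Col12a1 a transcript of 1784 bases held 79.3%, where the longest has 11511 bases. For Col15a1 one of 1755 bases held 61.3%, where the longest has 5172 bases. Full-length is used here for all transcripts of at least 0.5 of the length of the gene's longest one, retained introns included. Col1a1, Col1a2, Col4a1 and Col5a2 were held almost wholly by full-length transcripts (99.9%, 99.9%, 100% and 97.9%), while for Col3a1 the full-length transcript of 5564 bases held 54.0%.

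Upstream sequence is shown for 4 collagens on which the results turn: Col3a1 and Col1a2 as leading fibrillar chains, Col18a1 as a basement membrane collagen that rose in injured rectum and anus, and Col7a1 as the chain that separated squamous from rectal sections. Col4a1 rose in both too, but its upstream bases lie wholly in annotated exons and are not shown. Each is the stretch, on the strand of the gene, of the 250 bases before its RefSeq start that lies in no exon of the GENCODE M21 annotation (build GRCm38.p6, RefSeq sequence), and capitals mark matches on either strand to the motifs CCAAT (the CCAAT box), TATAAA (the TATA box) or GGGCGG (the GC box).
Col3a1, chr1:45311288-45311537, plus strand: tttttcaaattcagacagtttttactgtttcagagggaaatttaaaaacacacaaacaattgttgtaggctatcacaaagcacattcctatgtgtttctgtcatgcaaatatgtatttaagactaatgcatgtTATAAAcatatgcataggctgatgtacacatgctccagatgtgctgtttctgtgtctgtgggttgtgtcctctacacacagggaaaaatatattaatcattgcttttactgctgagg
Col1a2, chr6:4505370-4505492, plus strand: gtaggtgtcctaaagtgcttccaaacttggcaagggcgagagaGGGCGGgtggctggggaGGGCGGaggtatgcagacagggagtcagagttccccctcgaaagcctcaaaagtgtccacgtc
Col18a1, chr10:77166549-77166780, minus strand: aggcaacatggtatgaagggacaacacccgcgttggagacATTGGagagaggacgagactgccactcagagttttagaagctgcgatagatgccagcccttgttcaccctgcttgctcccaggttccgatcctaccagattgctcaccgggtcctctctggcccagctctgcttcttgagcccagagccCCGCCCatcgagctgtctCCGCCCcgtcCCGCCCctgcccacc
Col7a1, chr9:108953336-108953585, plus strand: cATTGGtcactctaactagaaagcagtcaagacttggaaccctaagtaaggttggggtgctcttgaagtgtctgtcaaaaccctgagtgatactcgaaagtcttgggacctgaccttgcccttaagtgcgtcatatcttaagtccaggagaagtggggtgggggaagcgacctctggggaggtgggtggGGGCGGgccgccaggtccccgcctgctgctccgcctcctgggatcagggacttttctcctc
The Col3a1 stretch held TATAAA and none of the other motifs, the Col1a2 stretch held GGGCGG at 2 places, and the Col18a1 stretch held 3 matches to GGGCGG and 1 to CCAAT, all on the opposite strand. Col1a2 also had a CCAAT match at -109 from its RefSeq start, between the printed stretch and that start. A further RefSeq start of Col18a1, not shown, had none of the motifs in its 250 upstream bases. The Col7a1 stretch held 1 match to CCAAT on the opposite strand and 1 to GGGCGG. Of the 43 collagens, 34 had a RefSeq window from 250 bases before to 50 bases after the start, with 37 windows in all. GGGCGG was in 62.2% of those windows and in 35.7% of all 32851 windows of that length, CCAAT in 32.4% and 37.4%, and TATAAA in 10.8% and 13.6%. These shares describe the letters and say nothing of a factor's binding.

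The 6 type IV genes lie in 3 head-to-head pairs. Col4a1 (chr8:11198423-11312826, minus strand) and Col4a2 (chr8:11312805-11449287, plus strand) overlap by 22 bases at their 5′ ends. Between Col4a4 and Col4a3 lie 71 bases, and between Col4a6 and Col4a5 1308 bases. The fibrillar genes Col3a1 and Col5a2 lie 24614 bases apart on chromosome 1, on opposite strands.

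The summed level of the 43 collagens was lowest in mid-colon and highest in anus by the median over libraries. Over all days it ranged from 122 to 424 TPM in mid-colon (median 261, n = 19), 216 to 871 TPM in rectum (median 426, n = 19), 476 to 1825 TPM in anus (median 979, n = 19) and 247 to 1900 TPM in neo-epithelium (median 542, n = 9). Fibrillar chains made up most of each sum, at 71.4 to 306 TPM in mid-colon and 321 to 1454 TPM in anus. The type IV sum ranged less between sections, from 6.31 to 26.9 TPM in mid-colon, 7.93 to 75.3 TPM in rectum, 12.6 to 59.3 TPM in anus and 17.5 to 76.9 TPM in neo-epithelium.

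**Figure D1:**
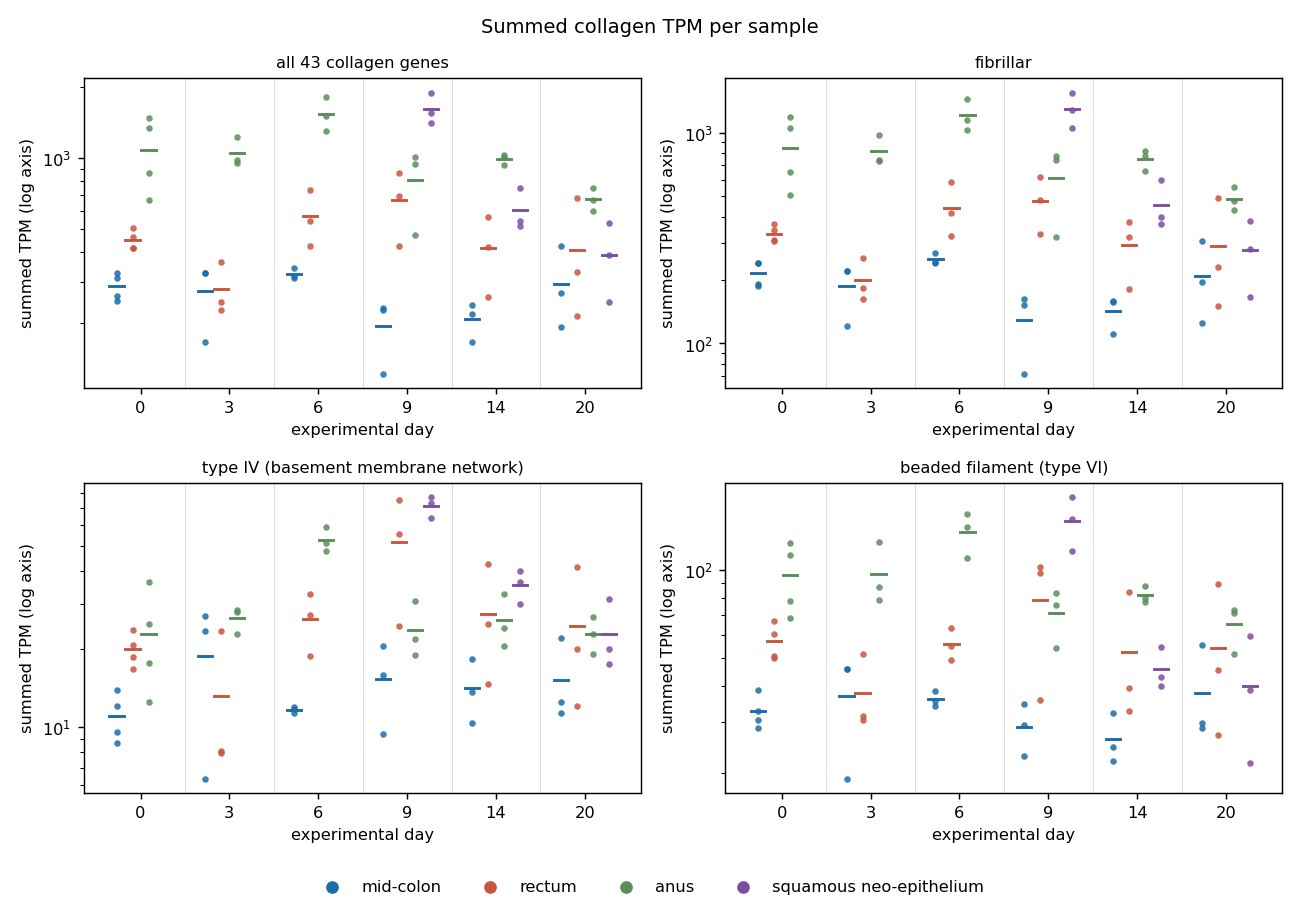
Summed TPM of collagen classes (vertical axes, log scale) by experimental day, with each library as a point and the group mean as a bar. Group means of the 43 genes and of fibrillar chains are highest in anus at day 0, 3, 6, 14 and 20 and in neo-epithelium at day 9, and the neo-epithelial sums fall from day 9 to day 20.

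In uninjured mice, 16 of the 23 collagens tested were higher in anus than in rectum and none was lower (limma, Benjamini-Hochberg adjusted p under 0.05, here termed called). Of all 13158 genes tested, 25.9% were called higher and 34.4% lower. Changes are differences of mean log2(TPM + 1), which understate the change of genes with low TPM. A gene was tested if it had 1 TPM in as many libraries as the smaller group holds, so a collagen such as Col7a1 or Col4a6 could enter through the group in which it was high, and the counts are descriptions. The collagens had a median of 0.87, against -0.15 for all genes. The largest differences were in Col7a1, Col12a1, a FACIT collagen of dense connective tissue, and Col1a2. Col7a1 was at 0.338, 0.210, 0.682 and 0.297 TPM in the 4 rectal libraries and at 3.48, 4.15, 6.13 and 4.67 TPM in the anal ones. The groups lay far apart, with a log2 difference of 2.01 (SE 0.19, limma adjusted p = 1.51e-05). Col12a1 was at 4.00, 4.31, 5.78 and 5.02 TPM in rectum and at 17.2, 20.3, 22.6 and 28.4 TPM in anus, again with no overlap (1.99, SE 0.18, limma adjusted p = 1.418e-05). For Col1a2 the anal libraries were at 77.3, 123, 224 and 237 TPM and the rectal ones at 38.2 to 46.7 TPM (1.82, SE 0.32, limma adjusted p = 0.0007771). Over 4 libraries each, Col1a1 averaged 87.0 ± 49.2 TPM (SD) in anus against 22.5 ± 2.86 TPM in rectum. Col3a1 averaged 561 ± 185 TPM (SD) in anus, against 229 to 274 TPM in the rectal libraries.

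The basement membrane class was split between these sections. Col4a5 (log2 difference 0.79) and Col4a6 (1.07) were higher in anus, and so were Col18a1 (1.02) and Col15a1 (1.49), all called by limma. Col4a1 and Col4a2, the common chains, were not called, with 4.65 to 16.5 TPM in anus and 8.74 to 11.8 TPM in rectum for Col4a1. All 16 calls but those of Col14a1 and Col5a1 held when any 1 mouse was left out. The 10 fibroblast markers summed to 858 to 938 TPM in rectum and 1765 to 2245 TPM in anus. Of that list Gsn is also made by muscle and epithelium and Ly6c1 by endothelium and leukocytes, so the sum of the other 8 markers is given beside it throughout, a choice made with the values known. It was 346 to 432 TPM in rectum and 697 to 958 TPM in anus. The skeletal muscle sum was 12.9 to 38.8 TPM in rectum and 1819 to 18480 TPM in anus. The part of these cell types in the collagen difference was not tested.

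Rectum and mid-colon differed less at day 0. Of the 17 collagens tested, 7 were higher in rectum and none lower, while 1.52% of all genes were called higher and 0.274% lower: the type VI chains Col6a1 (0.89) and Col6a2 (0.82), Col12a1 (0.86), and the fibrillar chains Col5a2 (0.66), Col1a1 (0.66), Col3a1 (0.62) and Col1a2 (0.61). Col1a1 was at 13.6, 14.0, 14.4 and 13.4 TPM in mid-colon and 23.1, 22.2, 25.9 and 19.0 TPM in rectum. These groups did not overlap (log2 difference 0.66, SE 0.12, limma adjusted p = 0.03145). With TMM scaling, which centres the all-gene median here shifted by 0.21, no collagen was called, and none was called without mouse 1, 2 or 3. The collagens' median was 0.62 on the deposited scale and 0.44 with TMM.

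In mid-colon the collagens changed at day 9, 3 days after the DSS ended, and the change was downward. No collagen of 17 was called at day 3 (limma; 0 at an unadjusted p under 0.05; 0.375% of all genes called), and 1 was at day 6, when 4.93% of all genes were called higher and 9.99% lower. This was Col23a1, a transmembrane collagen, at 1.57 ± 0.432 TPM (n = 3) against 0.465 ± 0.119 TPM (n = 4), with a limma adjusted p of 0.01641, and the count was 0 without mouse 8 or 9, 4 without mouse 4, and 3 with TMM scaling. The day 0 level of Col23a1 was under the 1 TPM filter, so it entered the test through the day 6 libraries. At day 9, 5 of 16 were lower and none higher, against 17% of all genes called lower and 26.5% called higher. The 5 were 3 fibrillar chains, Col1a1 (-1.05), Col3a1 (-0.80) and Col1a2 (-0.79), and 2 FACIT chains, Col14a1 (-1.06) and Col16a1 (-0.67).

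Col1a1 was at 3.00, 9.11 and 8.15 TPM in the day 9 mid-colons against 13.4 to 14.4 TPM at day 0. The day 9 libraries were all below the lowest control, and the mouse 11 library was the lowest of all (log2 difference -1.05, SE 0.29, limma adjusted p = 0.0155). Col3a1 was at 52.8, 117 and 126 TPM against 139, 141, 186 and 186 TPM, also without overlap (SE 0.28, limma adjusted p = 0.04077). That call was lost without mouse 3, 4 or 11 and with the full-length transcript alone. Without mouse 3 the count of 5 calls became 3. Neither type IV chain tested was called, with Col4a1 at 6.08, 12.2 and 9.53 TPM at day 9 and 4.70 to 7.21 TPM at day 0. Of the 10 fibroblast markers 6 were lower at day 9 and 2 higher, by limma. Their sum was 621 to 693 TPM at day 0 and 1553 to 2267 TPM at day 9. Most of the day 9 sum was Ly6c1, which averaged 55.6 ± 6.75 TPM (SD, n = 4) at day 0 and 1472 ± 457 TPM (n = 3) at day 9. Without Gsn and Ly6c1 the sum was 234 to 347 TPM at day 0 and 156 to 184 TPM at day 9. The part of these markers in the fall of the fibrillar chains was not tested.

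Between day 6 and day 9, 6 of 17 collagens fell in mid-colon and none rose, against 31.3% of all genes called higher and 9.27% lower: Col3a1 (-1.10), Col14a1 (-1.02), Col1a1 (-1.01), Col1a2 (-0.79), Col6a3 (-0.71) and Col8a1 (-0.70). With TMM scaling 10 fell. The count was 1 without mouse 8, 2 without mouse 9 or 10, and 10 without mouse 11. No collagen of 18 was called against day 0 at day 14 (limma; 8 at an unadjusted p under 0.05, 2 higher and 6 lower; 4.36% of all genes called; 2 lower with TMM, 2 calls without mouse 4 and 1 without mouse 14) or at day 20 (1 at an unadjusted p under 0.05; 1.56% of all genes called). Day 14 against day 9 had no call of 17 either (limma; 2 at an unadjusted p under 0.05; 19.7% of all genes called; 1 with TMM or without mouse 16).

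In rectum 4 of the 5 fibrillar chains tested were lower at day 3, and at day 9 Col4a1, Col18a1 and 3 of 6 fibrillar chains were higher. At day 9, however, 33.5% of all genes were called higher. The day 9 call of Col3a1, among those chains, was lost without mouse 1, 2, 3, 4, 11 or 13. The later days share the day 0 controls with each other, so their values are given side by side. At day 3, 6 of 20 collagens were lower and none higher, against 1.5% of all genes called higher and 5.13% lower: Col16a1 (-0.99), Col3a1 (-0.76), Col5a2 (-0.72), Col1a2 (-0.70), Col1a1 (-0.62) and Col14a1 (-0.58). The 20 had a median of -0.62, against -0.06 for all genes. Col3a1 was at 139, 118 and 190 TPM at day 3 and at 229, 259, 274 and 234 TPM at day 0, so no day 3 library reached a control (SE 0.15, limma adjusted p = 0.01753). Col1a1 was at 13.7, 12.9 and 16.3 TPM against 19.0 to 25.9 TPM, likewise apart.

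The day 3 count rested on single mice: it was 3 without mouse 1, 2 or 3, 0 without mouse 5, 1 without mouse 6 and 14 without mouse 7, whose type IV levels stood apart (Col4a1 at 12.6 TPM, against 4.47 and 4.25 TPM in the other day 3 mice). Fibroblast markers summed to 644, 685 and 835 TPM at day 3 against 858 to 938 TPM at day 0, with 1 of the 10 called lower, and without Gsn and Ly6c1 to 199, 193 and 333 TPM against 346 to 432 TPM. Their part in the collagen change was not tested.

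At day 6, 4 of 21 rectal collagens were called. Col4a1 (0.63) and Col6a3 (0.59) were higher, and Col4a5 (-0.87) and Col14a1 (-0.42) lower, against 11.5% of all genes called higher and 37.2% lower. With TMM scaling 6 were higher and 1 lower, and the split over all genes turned from 1455 higher and 4690 lower to 2475 and 2058. Col4a5, a minor type IV chain, was at 0.760, 0.567 and 0.499 TPM at day 6 against 1.43 to 2.39 TPM at day 0, with no overlap and an adjusted p of 0.003775 (limma). The 4 calls became 2 without mouse 2 and 7 without mouse 9.

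At day 9, 6 of 21 rectal collagens were higher and 1 lower (5 and 2 with TMM), against 33.5% of all genes called higher and 20% lower. The share of collagens called higher, 6 of 21, was thus near that of all genes. Col18a1, the multiplexin of epithelial and vascular basement membranes, was at 19.7, 6.73 and 19.8 TPM at day 9 and at 3.02, 4.35, 4.44 and 3.42 TPM at day 0. All day 9 libraries were above the controls, that of mouse 12 least (log2 difference 1.65, SE 0.34, limma adjusted p = 0.003337). Col4a1 was at 35.4, 17.2 and 45.3 TPM against 9.97, 10.3, 11.8 and 8.74 TPM, with the same order of mice and no overlap (1.49, SE 0.29, limma adjusted p = 0.002354). Its partner Col4a2 was at 18.7, 6.80 and 27.9 TPM against 5.66 to 8.93 TPM, overlapping through mouse 12, and was not called.

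The fibrillar chains Col5a2 (0.94, SE 0.21) and Col5a3 (0.92, SE 0.22) also rose at day 9, with adjusted p of 0.005482 and 0.007448 (limma). Col5a3, a minor type V chain, was at 3.37, 1.48 and 3.38 TPM against 0.724 to 1.05 TPM, so it passed the 1 TPM filter with the day 9 libraries. Col6a3 (0.73) and Col3a1 (0.52) passed more narrowly, with adjusted p of 0.04761 and 0.04195, and their groups overlapped. Col3a1 was at 363, 262 and 473 TPM against 229 to 274 TPM and lost its call with TMM scaling. Col1a1 and Col1a2 were not called, with Col1a1 at 21.2, 17.7 and 37.0 TPM against 19.0 to 25.9 TPM. Col18a1, Col4a1, Col5a2 and Col5a3 were called whichever mouse was left out. The count was 4 without mouse 1, 2 or 4, and 14 without mouse 12, 13 of them higher.

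Mouse 12 was low in smooth muscle and pericyte markers at day 9 (264 TPM, against 1477 and 1487 TPM in mice 11 and 13 and 1063 to 1273 TPM at day 0). Its full fibroblast sum was the highest of the day 9 mice (3587 TPM, against 2308 and 2662 TPM, and 858 to 938 TPM at day 0), while without Gsn and Ly6c1 it was the lowest (228 TPM, against 514 and 428 TPM, and 346 to 432 TPM at day 0). Of the 10 fibroblast markers 4 were called higher at day 9, Ly6c1 among them (4.68), and 1 lower. Endothelial markers summed to 59.2, 197 and 165 TPM at day 9 and 29.3 to 48.5 TPM at day 0, with mouse 12 highest. The part of these markers in the collagen values was not tested.

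Later in rectum, 2 of 20 collagens were lower at day 14 and none higher, against 6.31% of all genes called higher and 9.51% lower. These were Col14a1 and Col8a1. Col8a1, a network collagen of vessel walls, was at 1.84, 1.06 and 1.57 TPM against 3.08, 3.88, 4.76 and 3.34 TPM at day 0 (log2 difference -0.94, SE 0.18, limma adjusted p = 0.01795). The count was 8 without mouse 14, 5 without mouse 15, and 1 without mouse 2, 3 or 16. No collagen of 19 was called at day 20 (limma; 2 at an unadjusted p under 0.05; 7.68% of all genes called; 2 calls without mouse 17 or 19), and day 20 rectal sums spread from 216 to 682 TPM. Against day 6, no collagen of 20 was called at day 9 (limma; 2 at an unadjusted p under 0.05; 37.9% of all genes called), although 9 were without mouse 12. Against day 9, Col8a1 alone was lower at day 14 among 20 tested (limma adjusted p = 0.04777; 3.32% of all genes called higher and 4.72% lower), and leaving out any 1 of the 6 mice ended that call.

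In anus all called changes were at day 6, apart from a further call of Col14a1 at day 9, and Col4a1, Col4a2 and Col18a1 were among them. No collagen of 23 was called at day 3 (limma; 1 at an unadjusted p under 0.05; 0.044% of all genes called). At day 6, 6 of 24 were higher and 1 lower (7 and 3 with TMM), against 8.64% of all genes called higher and 6.37% lower. Col4a1 was at 36.7, 30.1 and 29.6 TPM against 4.65, 6.60, 16.5 and 10.1 TPM at day 0 (log2 difference 1.79, SE 0.35, limma adjusted p = 0.01204). The lowest day 6 library was well above the highest control. Col4a2 was at 18.5, 14.9 and 17.4 TPM against 3.26, 5.30, 11.1 and 6.86 TPM (1.33, SE 0.33, limma adjusted p = 0.02859), and Col18a1 at 25.8, 20.2 and 23.3 TPM against 6.01, 8.02, 11.5 and 10.2 TPM (1.31, SE 0.23, limma adjusted p = 0.00768). Neither overlapped with day 0.

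Col6a3 (1.64), Col5a2 (0.93) and the fibrillar chain Col27a1 (0.83) made up the other higher calls. Col27a1 was tested in only 1 comparison with day 0, this one, so it passed the filter with the day 6 libraries, where it was higher. Col6a3 was at 46.1, 42.6 and 50.9 TPM at day 6 and 7.46, 7.84, 22.6 and 29.0 TPM at day 0, and it was not called from full-length transcripts alone. Type I chains were not called: Col1a1 was at 93.9, 51.4 and 138 TPM against 34.8, 56.6, 118 and 139 TPM, within the spread of the controls. The count of 7 became 4 without mouse 2, 2 without mouse 8, and 3 without mouse 9 or 10. Endothelial markers (8 genes) summed to 92.6 to 146 TPM at day 6 and 35.1 to 67.4 TPM at day 0, while fibroblast markers summed to 1239 to 1660 TPM and 1765 to 2245 TPM, and without Gsn and Ly6c1 to 532 to 824 TPM and 697 to 958 TPM. Of the 10 fibroblast markers 2 were called higher and 2 lower. The part of these cell types in the rise was not tested.

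After day 6, in other mice, anal Col4a1 was at 8.98, 11.8 and 15.7 TPM at day 9, within the day 0 range. Later anal days were not tested against day 6. Of 23 collagens, 1 was called at day 9: Col14a1 was lower than at day 0, against 1.46% of all genes called higher and 3.63% lower, and the call was lost without mouse 2, 3, 11, 12 or 13. No collagen of 22 was called at day 14 (limma; 3 at an unadjusted p under 0.05; 4.27% of all genes called) or at day 20 (6 at an unadjusted p under 0.05, all lower; 1.46% of all genes called; 1 call without mouse 1). With TMM scaling 2 were called at each of these days.

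**Figure D2:**
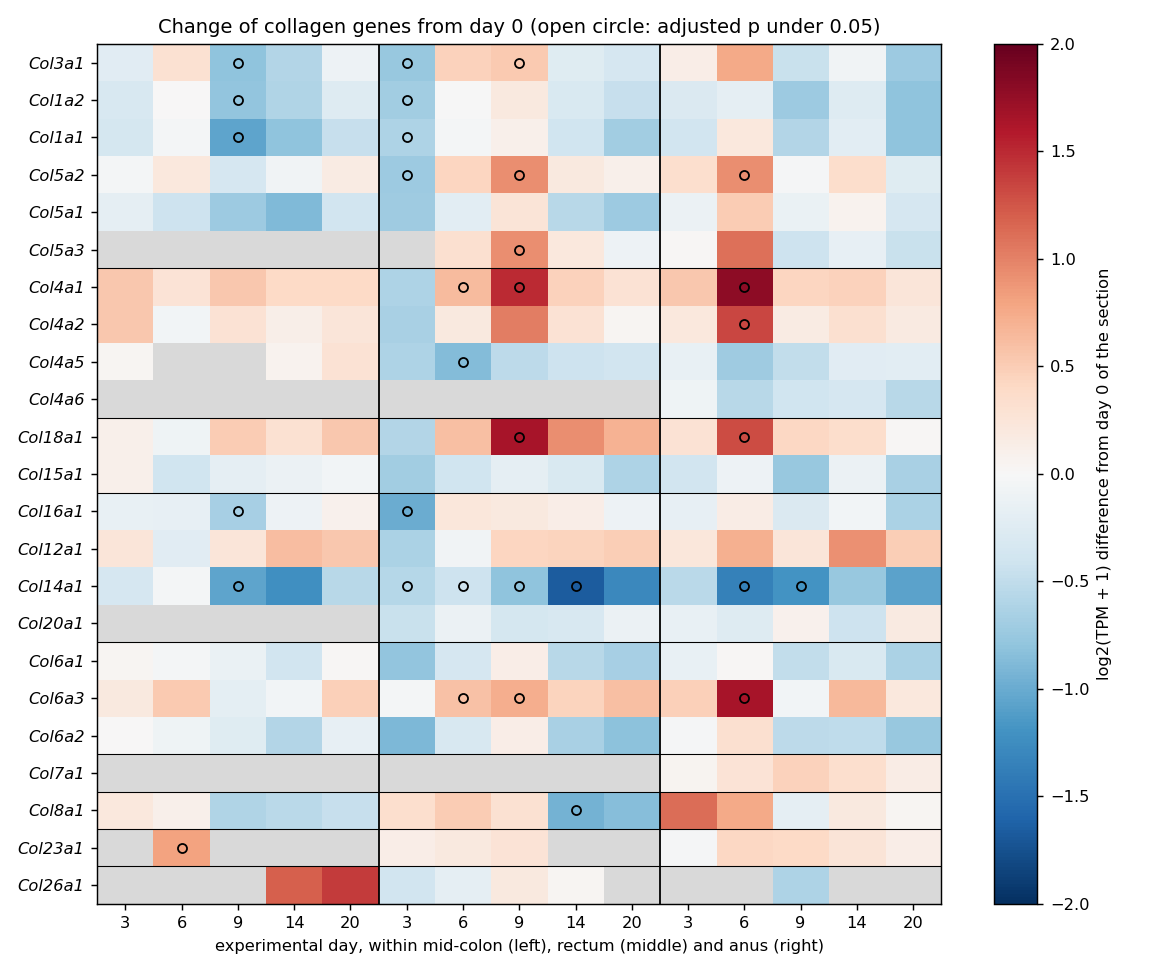
Difference from day 0 of the same section in log2(TPM + 1) (colour) for collagens tested in at least 5 of the 15 comparisons, by experimental day within mid-colon, rectum and anus; grey marks a gene not tested and an open circle a limma adjusted p under 0.05. Col14a1 is blue with a circle in 7 columns, and Col18a1 and Col4a1 are the darkest red of rectum at day 9, as Col4a1 and Col6a3 are of anus at day 6.

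Col14a1, a FACIT collagen that coats fibrils, was called lower in 7 of its 15 comparisons with day 0 and higher in none, the most calls of any collagen. The 15 comparisons share 4 control mice per section. In rectum it was at 8.71, 8.92, 10.5 and 8.52 TPM at day 0, 5.60, 5.79 and 5.99 TPM at day 3, and 6.37, 6.16 and 7.28 TPM at day 6. It was then at 6.51, 2.27 and 6.90 TPM at day 9, 3.01, 2.01 and 1.67 TPM at day 14, and 4.03, 1.16 and 5.60 TPM at day 20. Every injured rectum was below every control, and the day 14 libraries were lowest as a group (log2 difference -1.67, SE 0.17, limma adjusted p = 0.004103).

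In anus Col14a1 was at 10.6, 11.4, 15.6 and 19.1 TPM at day 0 and at 4.92, 3.82 and 5.89 TPM at day 6, with no overlap (-1.35, SE 0.25, limma adjusted p = 0.009098). In mid-colon it was at 5.70, 5.24, 7.38 and 8.86 TPM at day 0 and 3.29, 1.78 and 3.19 TPM at day 9 (-1.06, SE 0.24, limma adjusted p = 0.005014). The calls of mid-colon day 9, rectum day 14 and anus day 6 held whichever mouse was left out. Those of rectum at day 3 (without mouse 5), day 6 (without mouse 2, 3 or 9) and day 9 (without mouse 1, 2, 3 or 4) did not, and the rectal day 6 call was lost with TMM scaling. A transcript of 2085 bases held 60.5% of the gene's TPM, and with full-length transcripts alone the anal calls at days 6 and 9 were lost.

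**Figure D3:**
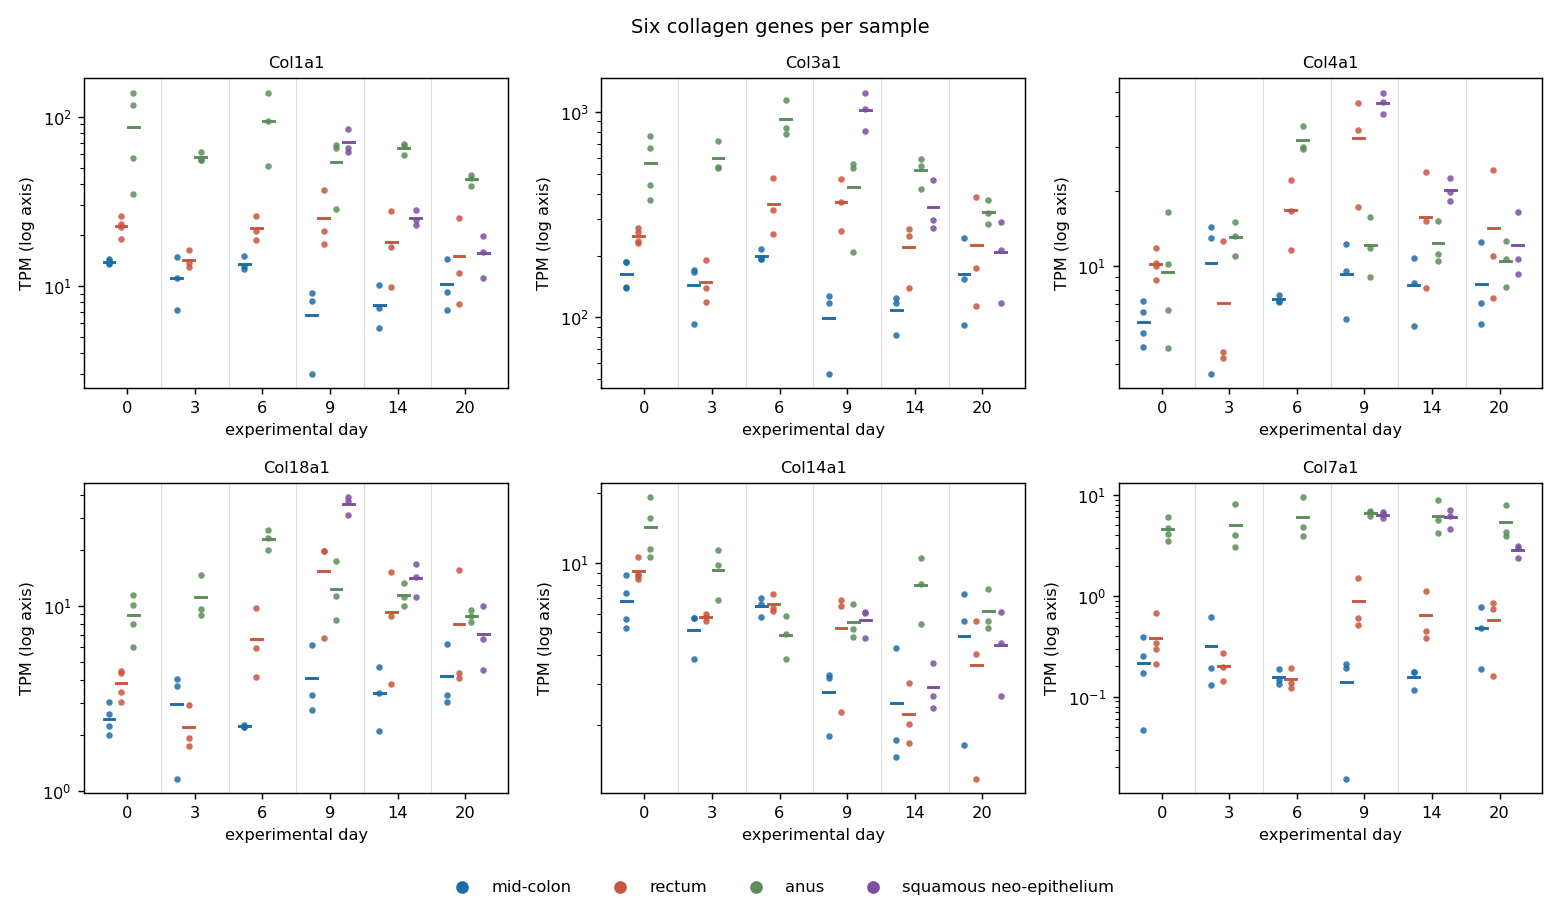
TPM (log axis) of Col1a1, Col3a1, Col4a1, Col18a1, Col14a1 and Col7a1 by experimental day, with 1 point per library coloured by section and bars at group means. Col7a1 of neo-epithelium lies above rectum at days 9, 14 and 20. It overlaps anus at days 9 and 14 and lies below anus at day 20. Col3a1, Col4a1 and Col18a1 of neo-epithelium fall from day 9 to day 20.

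Whether rectum and mid-colon responded differently at day 9 was tested as an interaction, with both sections and both days in the fit. Of 21 collagens, 3 had a more positive response in rectum and none a more negative one, against 5.84% and 0.703% of all genes. These were fibrillar chains: Col3a1 (difference of log2 changes 1.32, SE 0.37, adjusted p = 0.0494), Col5a2 (1.27, SE 0.32, adjusted p = 0.02632) and Col5a3 (1.07, SE 0.26, adjusted p = 0.02369), all by limma. Col3a1 fell by 0.80 in mid-colon and rose by 0.52 in rectum. Col5a3 was at 0.267 to 0.486 TPM in day 0 and 0.254 to 0.278 TPM in day 9 mid-colon, under the 1 TPM filter, so its difference came from rectum. No collagen was called when mouse 1, 2, 3, 4, 11 or 13 was left out, and 12 were without mouse 12.

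Squamous neo-epithelium was set against rectum and anus of days 9, 14 and 20, with day as a covariate. Against rectum 8 of 24 collagens were higher and none lower, while 20.7% of all genes were called higher and 21.3% lower. Col7a1 led: it ranged from 2.39 to 7.15 TPM in the 9 neo-epithelial libraries (median 5.86) and from 0.162 to 1.52 TPM in the 9 rectal ones (median 0.608), with no overlap (log2 difference 1.80, SE 0.16, limma adjusted p = 1.317e-07). It was higher than in the rectum of the same mouse in 9 of 9 mice, at each day. Col7a1 passed the 1 TPM filter with the neo-epithelial libraries, where it was high, so its test is a description. Col12a1 (1.39, adjusted p = 0.0001245) and Col5a2 (0.86, adjusted p = 0.002557) followed, and then Col1a1 (0.74), Col3a1 (0.72), Col4a5 (0.69), Col1a2 (0.66) and Col23a1 (0.47). The count was 8 with the mouse as a replicate block and 5 without mouse 11, 12, 13, 14 or 16. Squamous marker sums were higher in neo-epithelium than in the rectum of the same mouse in 9 of 9 mice, colonic epithelial sums in 0, smooth muscle and pericyte sums in 1, and fibroblast sums in 2 (in 4 without Gsn and Ly6c1). Their part in the collagen differences was not tested.

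Against anus 3 collagens were higher and 9 lower of 24 (2 and 13 with TMM), against 38.1% and 20.4% of all genes. Higher were the type IV pair, Col4a1 (0.90, adjusted p = 0.0016) and Col4a2 (0.72, adjusted p = 0.008451), and Col27a1 (0.37), which lost its call with the mouse as a block. The largest falls were those of Col16a1 (-1.24, adjusted p = 4.019e-07), Col15a1 (-0.995) and Col4a6 (-0.89, adjusted p = 1.002e-06), all by limma. Over the 9 libraries of each, Col16a1 averaged 12.8 ± 3.39 TPM (SD) in neo-epithelium against 31.7 ± 8.74 TPM in anus, and Col4a6 0.212 ± 0.127 against 1.25 ± 0.268 TPM. Col4a6 reached at most 0.481 TPM in neo-epithelium, under the 1 TPM filter. It entered the test through anus, where it was high, so that call is a description. Col16a1, Col4a6 and Col23a1 were lower than in the anus of the same mouse in 9 of 9 mice. Col7a1 was not called against anus, where it ranged from 3.92 to 8.94 TPM over these days. It was higher than in the anus of the same mouse in 1 of 3 mice at day 9, 2 of 3 at day 14 and 0 of 3 at day 20. Skeletal muscle markers were at 2.69 to 12.4 TPM in neo-epithelium, far below anus. Colonic epithelial sums were higher than in the anus of the same mouse in 9 of 9 mice, and fibroblast sums in 3 of 9, all at day 9 (in 0 of 9 without Gsn and Ly6c1). The part of these markers in the differences was not tested.

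These pooled differences covered opposite days, so each day was also fitted alone. At day 9, 9 of 22 collagens were higher in neo-epithelium than in rectum (10.9% of all genes called higher and 15% lower), with a median of 1.05 against -0.08 for all genes. At days 14 and 20 Col7a1 alone was called, of 22 and 21 tested (8.97% and 4.9% of all genes called higher, 6.43% and 0.717% lower), with differences of 2.10 and 1.30 and limma adjusted p of 0.009966 and 0.03018. Col3a1 was 1.51 higher than in rectum at day 9 (SE 0.25, limma adjusted p = 0.004427), and at day 20 its difference was -0.02.

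Against anus, 11 of 23 collagens were higher and 4 lower at day 9 (26.7% and 16.5% of all genes), 1 higher and 10 lower of 21 at day 14 (20.8% and 11.3%), and none higher and 6 lower of 24 at day 20 (8.35% and 9.29%). At day 9 the higher ones were led by Col5a3 (1.90), Col6a3 (1.85) and Col4a1 (1.85, SE 0.20, limma adjusted p = 0.0006746), followed by Col4a2 (1.62), Col18a1 (1.50) and Col3a1 (1.35). At day 14 the lower ones were led by Col15a1 (-1.86), Col16a1 (-1.58) and Col1a1 (-1.34), and at day 20 by Col1a1 (-1.43), Col1a2 (-1.36) and Col16a1 (-1.25). Col1a1, Col1a2 and Col3a1 were higher than in the anus of the same mouse in 3 of 3 mice at day 9 and in 0 of 3 at days 14 and 20.

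**Figure D4:**
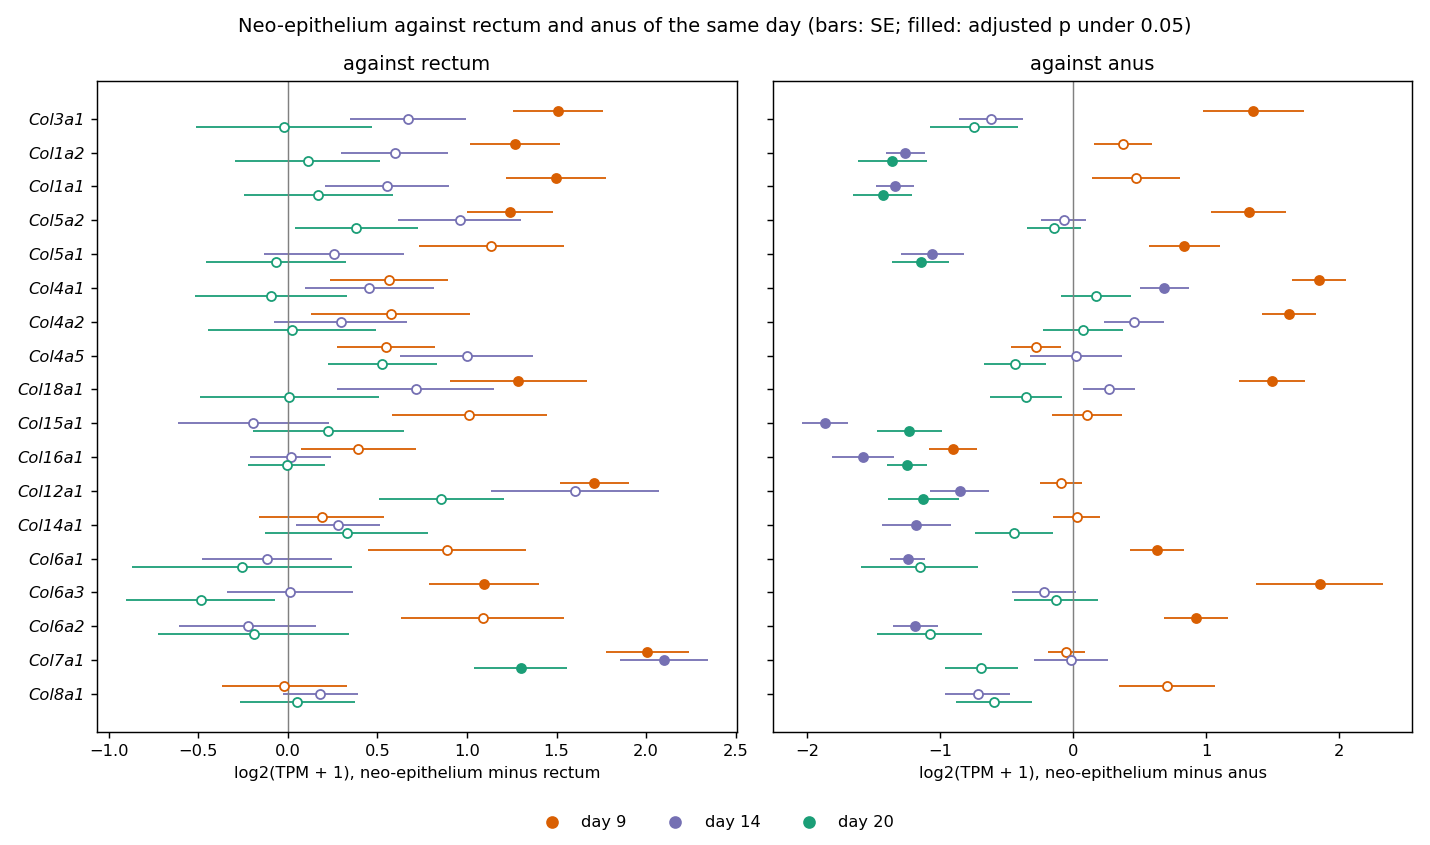
Difference in log2(TPM + 1) of neo-epithelium from rectum (left) and from anus (right), fitted separately for days 9, 14 and 20 (n = 3 against 3), with bars of 1 SE and filled points where the limma adjusted p was under 0.05. Day 9 points lie to the right of days 14 and 20 for most fibrillar and type IV chains, and Col7a1 is filled at all 3 days against rectum and at none against anus.

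Within neo-epithelium, collagen RNA fell between day 9 and day 20. The summed level of the 43 genes was 1405, 1560 and 1900 TPM at day 9, 542, 518 and 750 TPM at day 14, and 389, 247 and 534 TPM at day 20. The day 20 sums all lay below the day 9 ones. Of 22 collagens tested, 17 were lower at day 20 than at day 9 and none higher, against 10.1% of all genes called higher and 16.1% lower. The median was -1.61, against -0.14 for all genes. All 7 fibrillar chains tested fell, all 3 type VI chains, 2 of 3 type IV chains, both multiplexins, 2 of 3 FACIT chains and Col7a1. Of these, Col5a3 and Col27a1 reached 1 TPM in every library at day 9 but not at day 20.

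Col3a1 was at 807, 1035 and 1245 TPM at day 9 and 212, 117 and 293 TPM at day 20 (log2 difference -2.38, SE 0.35, limma adjusted p = 0.005976). Col18a1 was at 37.0, 31.0 and 38.7 TPM at day 9 and 6.59, 4.50 and 10.0 TPM at day 20 (-2.24, SE 0.27, limma adjusted p = 0.00396). Col6a2, a type VI chain, went from 55.2, 32.6 and 48.1 TPM to 9.41, 4.39 and 15.0 TPM (-2.23, SE 0.41, limma adjusted p = 0.0122). None of the 3 genes overlapped between the days. Col7a1 fell by less, from 6.52, 5.86 and 6.72 TPM to 2.96, 3.14 and 2.39 TPM (-0.95, SE 0.16, limma adjusted p = 0.009688). The count was 15 with TMM scaling and 9 without mouse 13. The fibroblast marker sum was 1397 to 1567 TPM at day 9 and 759 to 965 TPM at day 20, with 4 of the 10 markers called lower and none higher, and without Gsn and Ly6c1 it was 465 to 511 TPM and 187 to 401 TPM. Colonic epithelial markers summed to 211 to 1348 TPM and 4213 to 9601 TPM. Their part in the fall was not tested.

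Ratios between collagens of a library do not depend on how libraries are scaled. They were tested for each later day against day 0 of the section by exact two-sided permutation of log2 ratios. With 3 against 4 libraries there are 35 splits, so the smallest possible p is 0.0286, and with 75 tests the lowest adjusted p was 0.134, so no ratio passed adjustment. The ratio of Col4a1 to Col4a2, whose chains join in the common type IV trimer, lay wholly above day 0 in 8 of 15 comparisons and wholly below in none. In rectum it was 1.33 to 1.54 at day 0, 1.76 to 2.33 at day 6 and 1.62 to 2.53 at day 9. In anus it was 1.25 to 1.48 at day 0, 1.57 to 1.99 at day 3, 1.70 to 2.02 at day 6 and 1.63 to 1.87 at day 9. Day 0 groups are shared between these comparisons.

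The sum of type IV over the sum of fibrillar chains was also wholly above day 0 in 8 of 15 comparisons and wholly below in none. It was 0.0361 to 0.0631 in day 0 mid-colon and 0.0984 to 0.135 at day 9, and 0.0542 to 0.0646 in day 0 rectum, 0.0739 to 0.122 at day 9 and 0.0776 to 0.113 at day 14. Anal libraries had the lowest ratio at day 0, 0.0210 to 0.0343, and 0.0408 to 0.0462 at day 6. The ratio of Col3a1 to Col1a1 lay apart from day 0 in 4 of 15 comparisons. In rectum it was 9.94 to 12.4 at day 0 and 13.7 to 18.3 at day 6, but with full-length transcripts alone (5.72 to 7.36 and 7.12 to 10.1) those groups overlapped. At day 9 (12.8 to 17.2) and day 20 (14.5 to 15.2) the rectal ratio lay above day 0 too, and it did so also with full-length transcripts alone (7.99 to 10.1 and 7.94 to 9.73). In mid-colon the ratio was 14.35 to 15.25 at day 6 and 10 to 13.86 at day 0. With full-length transcripts alone (7.36 to 8.57 and 5.47 to 7.59) those mid-colon groups overlapped. The ratio of Col1a1 to Col1a2, the 2 chains of type I collagen, lay apart in 1 of 15. That of Col6a1 to Col6a2, partners in the type VI monomer, lay apart in 4 of 15. It was above day 0 in mid-colon at days 14 and 20 and in anus at day 14, and below in anus at day 6 (0.997 to 1.17, against 1.22 to 1.47).

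**Figure D5:**
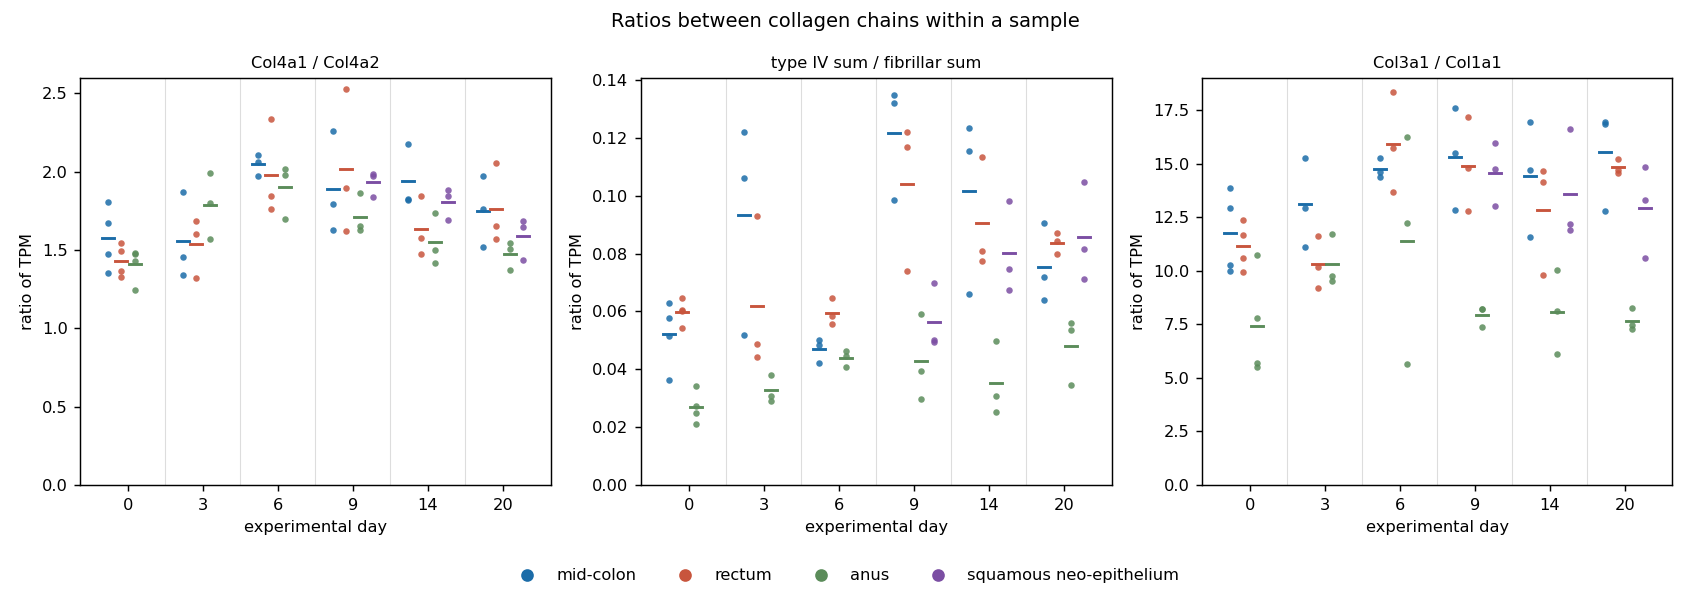
Ratios of TPM within a library (linear vertical axes from 0) for Col4a1 over Col4a2, the type IV sum over the fibrillar sum, and Col3a1 over Col1a1, by experimental day, with points coloured by section and bars at group means. The ratio of Col4a1 to Col4a2 lies between 1.25 and 1.48 in day 0 anus and between 1.70 and 2.02 at day 6.

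Genes that fold, modify and crosslink collagen were followed as a list of their own. In day 9 rectum 13 of 23 assembly genes were higher and none lower, against 33.5% of all genes called higher, with a median log2 difference of 0.53 against 0.13 for all genes. They were led by Lox (1.33, SE 0.23, adjusted p = 0.001345) and Loxl2 (1.20, SE 0.22, adjusted p = 0.001914), which crosslink collagen, and Crtap (1.23), which takes part in prolyl 3-hydroxylation. Loxl2 averaged 19.1 ± 5.74 TPM at day 9 and 7.54 ± 1.30 TPM at day 0. In day 9 mid-colon, where fibrillar chains were lower, 3 of 22 assembly genes were higher (Crtap, Plod3 and P4hb) and 2 lower, both smaller shares than those of all genes (26.5% and 17%). In day 3 rectum 3 of 23 were lower and none higher, against 5.13% and 1.5% of all genes: P3h2 (-0.89), the collagen chaperone Serpinh1 (-0.77) and the procollagen C-proteinase enhancer Pcolce2 (-0.74). In day 6 anus 2 of 26 were higher, Loxl2 (1.22) and P4ha3 (0.91), and Pcolce2 was lower (-1.54), shares no larger than the 8.64% and 6.37% of all genes.

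Among collagen-cleaving enzymes and their inhibitors the largest changes from day 0 given here exceeded those of any collagen in the same comparison. In day 9 rectum 8 of 9 were higher and none lower, against 33.5% and 20% of all genes, led by Mmp8 (5.78, adjusted p = 1.154e-06), the neutrophil collagenase, Mmp13 (5.33, adjusted p = 5.328e-07), the interstitial collagenase of mouse tissue, and Mmp9 (5.12), all by limma. Mmp13 averaged 74.5 ± 23.2 TPM at day 9 and 0.831 ± 0.165 TPM at day 0. In day 6 anus 3 of 8 were higher, among them Mmp13 (6.11, adjusted p = 0.0001894) and the inhibitor Timp1 (3.89), and 1 lower, against 8.64% and 6.37% of all genes. In day 9 mid-colon 5 of 9 were higher, against 26.5% of all genes, led by Mmp9 (2.87), Mmp8 (2.73) and Timp1 (2.66). Mmp8 is also one of the neutrophil markers, whose sum in mid-colon was 0.125 to 2.81 TPM at day 0 and 471 to 2225 TPM at day 9, and their part was not tested. Within neo-epithelium 6 of 9 fell from day 9 to day 20, led by Timp1 (-2.35), Mmp13 (-2.24) and Mmp2 (-1.83), and 14 of 25 assembly genes fell, led by Loxl2 (-2.27), while 16.1% of all genes were called lower.

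Proteins that bind fibrils or read them followed no single direction. Of the small leucine-rich and fibril-associated partners, 4 of 9 were lower in day 9 mid-colon (17% of all genes), led by Ogn (-1.75), Lum (-1.30) and Sparc (-0.83). In day 9 rectum Dcn, which coats type I fibrils, was higher (1.40) and Ogn lower (-1.36), where 33.5% of all genes were called higher and 20% lower. These are single partners and not a count of the list. Between day 0 anus and rectum 7 of 10 partners were higher in anus (25.9% of all genes), led by Dcn (2.28), Sparc (1.74) and Bgn (1.32). Of the collagen receptors, 4 of 8 were higher and 1 lower in day 9 rectum, against 33.5% and 20% of all genes: the integrin subunit Itga2 (1.81) and the inhibitory leukocyte receptor Lair1 (1.80) led, and the platelet receptor Gp6 was lower (-1.64). Itga2 (1.21) and Gp6 (-1.31) were also called in day 9 mid-colon, where Ddr1, a receptor kinase for collagen, was lower (-1.21). There 26.5% of all genes were called higher and 17% lower, and the receptors named are single genes, not a count of the list.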

How the data were processed

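Bulk RNA from colonic and anal sections was measured as single-end reads of 75 bp from stranded mRNA libraries, per the labels' protocols. The submitters' processing notes name CASAVA, kallisto and the build mm10, and give no versions. The authors deposited 1 table of TPM values per Ensembl transcript and library, and no other normalization is given in the sources used here. The table held transcripts repeated on several rows (1318 repeats, dropped here), so its deposited columns sum to more than the TPM total before that step. It had 126860 rows, of which 37344 held no values. Summing the transcripts of a gene left 30452 genes, and 1284 transcripts with no gene identifier were left out. Counts were not analysed here, so depth is unknown, no interval is given, and the number of mice limits the precision.

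Groups follow section and day in the labels. limma 3.58.1 (R 4.3.3) was run on log2(TPM + 1) over all genes that reached 1 TPM in a number of samples no smaller than the smaller group, with only the samples of the groups compared, a prior that follows mean expression, and Benjamini-Hochberg adjustment over all genes tested. Neo-epithelium was compared with day as a covariate, and also per day. Every adjusted p other than that of the ratios is from this limma fit, and called means an adjusted p under 0.05. Ratios were tested by exact permutation, with Benjamini-Hochberg adjustment over the 75 ratio tests. Scripts were tested on simulated data. Alternatives were a pseudocount of 0.1 TPM, no filter, trimmed-mean (TMM) scaling, the mouse as a block, each mouse left out, and, chosen after seeing the data, full-length transcripts alone. TMM moved the median of all genes from between -0.27 and 0.37 to near 0.

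Sections of 1 mouse share a mouse identifier in the labels, so they are paired by design. The mean correlation, across genes, of their deviations from group means was 0.0457 for anus and rectum at day 0, 0.126 for rectum and mid-colon, 0.250 for neo-epithelium and rectum, and 0.153 for neo-epithelium and anus.

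The 43 collagens and all other lists were chosen with earlier results of these data known. Named are the 2 highest genes per class and, per comparison, the 3 largest rises and falls among called collagens, with at most 3 genes per other list. Other values of collagens are given where a comparison counts them. The labels give no batch or date. No coordinates other than those of GENCODE M21 and RefSeq (GRCm38) were used, and single-cell samples of the study were not analysed here. Coordinates count from 1.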

Additional observations from a re-analysis of the deposited data

Results flagged for a closer look

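Each collagen tested at day 9 against day 0 was checked for a lone library among the 4 day 0 libraries of the section. Day 9 values thus took part in choosing the genes. A lone library was one whose gap to the nearest library was above Dixon's critical share of the group's range. Among 60 groups 2 had one, and chance gives about 1 in 20. Col6a1 was at 15.7 TPM in the day 0 mid-colon of mouse 3, against 11.0 to 11.6 TPM in the other 3 mice. Col16a1 was at 22.1 TPM in the day 0 anus of mouse 1, against 46.7 to 46.8 TPM in the others. The part of these libraries in the day 0 comparisons is given by the fits without each mouse.

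The day 9 response differed between rectum and mid-colon, by the interaction test in limma, for Col3a1 (difference 1.32), Col5a2 (1.27) and Col5a3 (1.07). Each call was lost without mouse 1, 2, 3, 4, 11 or 13.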

How the results depend on the processing

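Leaving out 1 mouse at a time gave 0 to 4 called collagens in mid-colon at day 6, 3 to 6 at day 9, 0 to 2 at day 14, 1 to 10 for day 9 against day 6, and 0 to 1 for day 14 against day 9. In rectum it gave 0 to 14 at day 3, 2 to 7 at day 6, 4 to 14 at day 9, 1 to 8 at day 14, 0 to 2 at day 20, 0 to 9 for day 9 against day 6, and 0 for day 14 against day 9. In anus it gave 2 to 8 at day 6, 0 to 1 at day 9 and 0 to 1 at day 20. Between sections it gave 14 to 16 for anus against rectum and 0 to 5 for rectum against mid-colon at day 0, 5 to 9 for neo-epithelium against rectum, 10 to 15 against anus, 9 to 16 for neo-epithelium of day 20 against day 9, and 0 to 12 for the interaction. TMM scaling gave 3 calls in mid-colon at day 6, 2 at day 14, 10 for day 9 against day 6 and 1 for day 14 against day 9. It gave 7 in rectum at day 6, 1 at day 20 and 0 for day 14 against day 9, 3 in anus at day 9, 2 at day 14 and 2 at day 20, and 0 for rectum against mid-colon at day 0. Without the filter there were 2 calls in rectum at day 3, 1 for rectum day 9 against day 6, 0 for day 14 against day 9, 4 in anus at day 6, 0 at day 9, 0 for rectum against mid-colon and 1 for the interaction. A pseudocount of 0.1 TPM gave 0 for rectum day 14 against day 9 and 1 for the interaction. Full-length transcripts alone gave 1 call in rectum at day 20, 4 in anus at day 6 and 0 at day 9.

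With the mouse as a replicate block, neo-epithelium had 8 calls against rectum and 10 against anus, and anus had 16 against rectum at day 0. Rectum had 9 against mid-colon, and the interaction 3. Of 46 single-gene calls, 2 were lost with the block, those of Col27a1 and Col14a1 between neo-epithelium and anus. By day, neo-epithelium against rectum had 1 call at day 14 and 1 at day 20, and against anus 6 at day 20. Pooled directions reversed for Col3a1 against rectum at day 20 (-0.0218) and against anus at day 9 for Col1a1 (0.47), Col1a2 (0.38), Col15a1 (0.105) and Col14a1 (0.0288), none of which passed the test there. Of 103 single-gene calls, 90 kept their side of the threshold with TMM, 97 with the smaller pseudocount and 70 without the filter. The cause of these shifts was not tested. Depth is unknown, so low levels could not be given a detection limit.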
